A study of Homo sapiens with 33 samples.

Results

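The SOX, PAX, TBX and FOX genes encode 4 families of transcription factors that set cell identity during development. They were taken from the gene table of K562 RNA as every entry whose symbol is SOX, PAX or TBX followed by a number, or FOX followed by a letter from A to S and a number. This rule found 86 of 58293 entries. They stand for 85 genes, which were 19 SOX, 9 PAX, 13 TBX and 44 FOX genes. TBX18 had 2 entries, and the higher was used. The rule used names alone and no expression value.

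K562 is a human erythroleukemia line that makes embryonic and fetal globins. The study asked how RNA bound by the histone methyltransferase EZH2 controls Polycomb silencing at the LEVER locus and the ε-globin gene. The values here came from the wild-type K562 RNA that served as the input of an EZH2 RNA immunoprecipitation (RIP-seq), which came from formaldehyde-fixed cells. The label calls it total RNA, while the methods describe the immunoprecipitation from lysates of sonicated nuclei, so the values may hold mostly nuclear RNA, unspliced transcripts included. It was sequenced as 1 library, so no replicate error could be given and no condition was compared. The authors gave each gene as FPKM (fragments scaled to the length of the transcript and to the number of mapped fragments) with a lower and an upper bound. For genes of 1 exon each bound lies about 2 standard deviations of counting error from the level. For genes with several transcripts the bounds can be wider than that. Levels between genes are compared per length throughout, as FPKM. In FPKM, a lower level per cell and a smaller share of cells with the transcript cannot be told apart. All of the 9 K562 and erythroid markers checked stood between 12.0 and 218 FPKM, from the embryonic globin gene HBZ to the fetal globin gene HBG2, which is nearly identical to HBG1. Of 7 markers of other cell types, EPCAM stood at 27.9 FPKM, MYOD1 was listed at 0 and the other 5 reached at most 0.677.

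The families share a mode of action: each factor reads a short DNA motif and recruits coactivators or corepressors. SOX proteins bind through an HMG box that bends DNA, PAX proteins through a paired domain, TBX proteins through a T-box and FOX proteins through a winged-helix forkhead domain. Most members act in a restricted set of tissues, such as neural progenitors, kidney, limb or endoderm, and many are textbook targets of the Polycomb repressive complexes in cells that do not use them. A smaller number, among them FOXM1, the FOXK proteins and several FOXO and FOXJ proteins, are made in many cell types and act in the cell cycle, metabolism and stress responses. SOX6 is known in erythroid cells for its part in silencing globin genes together with BCL11A.

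Sequences at the start sites of selected members are given beside their levels, and a link between the 2 was not tested. The 100 bases upstream of the RefSeq start (GRCh38.p14) are printed for 4 pairs, 1 from each family. Each pair sets an expressed member beside a low or silent member of the same family. SOX12 and SOX2 belong to different subfamilies, whereas the other pairs each lie within a subfamily. The pairs were chosen after their values were seen, and the bounds of PAX8 and PAX5 overlapped. CpG dinucleotides, which are dense at many developmental promoters, are in capitals.
FOXO3 (chr6:108559725-108559824, plus strand, 10 CpG): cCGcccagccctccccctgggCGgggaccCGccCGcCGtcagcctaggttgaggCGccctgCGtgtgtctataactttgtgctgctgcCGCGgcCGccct
FOXO1 (chr13:40666642-40666741, minus strand, 20 CpG): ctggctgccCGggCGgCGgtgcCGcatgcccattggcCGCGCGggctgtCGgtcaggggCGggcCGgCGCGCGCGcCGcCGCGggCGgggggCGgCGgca
PAX8 (chr2:113278922-113279021, minus strand, 8 CpG): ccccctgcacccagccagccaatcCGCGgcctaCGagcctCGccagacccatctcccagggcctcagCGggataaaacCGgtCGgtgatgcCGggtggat
PAX5 (chr9:37034269-37034368, minus strand, 9 CpG): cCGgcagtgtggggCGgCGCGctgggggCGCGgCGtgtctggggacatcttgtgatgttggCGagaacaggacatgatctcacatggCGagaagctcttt
TBX18 (chr6:84764599-84764698, minus strand, 9 CpG): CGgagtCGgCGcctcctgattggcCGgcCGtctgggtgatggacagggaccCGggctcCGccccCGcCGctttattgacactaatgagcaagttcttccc
TBX20 (chr7:35254101-35254200, minus strand, 13 CpG): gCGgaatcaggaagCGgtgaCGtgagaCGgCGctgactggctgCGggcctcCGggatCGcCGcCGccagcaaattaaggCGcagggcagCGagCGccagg
SOX12 (chr20:325452-325551, plus strand, 19 CpG): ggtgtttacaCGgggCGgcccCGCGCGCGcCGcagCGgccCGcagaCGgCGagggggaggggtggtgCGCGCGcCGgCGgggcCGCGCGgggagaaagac
SOX2 (chr3:181711825-181711924, plus strand, 9 CpG): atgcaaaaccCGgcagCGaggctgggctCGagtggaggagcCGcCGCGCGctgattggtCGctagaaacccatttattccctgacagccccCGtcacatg
The levels were 1.85 FPKM for FOXO3 and 0.253 for FOXO1, and 1.15 for PAX8 and 0.0141 for PAX5. They were 5.13 for TBX18 and 0.0344 for TBX20, and 1.51 for SOX12 and 0.0251 for SOX2. These chosen windows show that CpG can be dense on either side of a pair. Promoters of 56 members were matched closely. Among these, the median ratio of observed to expected CpG was higher in 15 expressed (0.988) than in 31 silent genes (0.733). Coding promoters were not split by level, so whether other genes differ likewise was not tested.

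Most of these genes were silent or low in K562. An FPKM of at least 1 was called expressed, 0.1 to 1 low and under 0.1 silent. By these limits 19 of 85 genes were expressed (22.4%, 95% Wilson interval 14.8 to 32.3), 20 were low and 46 were silent (54.1%, 43.6 to 64.3). These intervals treat the genes as independent draws, which related genes are not, and cover neither fragment counting nor replicate error. Among all entries, 21.8% were expressed and 54.2% were silent, so the shares of the 4 families were near those of the whole table, which includes many noncoding genes. Over the 19757 protein-coding entries 49.2% were expressed and 28.0% were silent. When genes whose span overlaps another listed gene were left out, 4 of 42 members (9.52%), 14.4% of all entries and 39.2% of coding entries were expressed. The expressed share of the members was lower than that of coding genes with and without that filter, a difference that was not tested. The median member stood at 0.0581 FPKM, beside 0.0680 over all entries and 0.902 over coding entries.

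**Figure D1:**
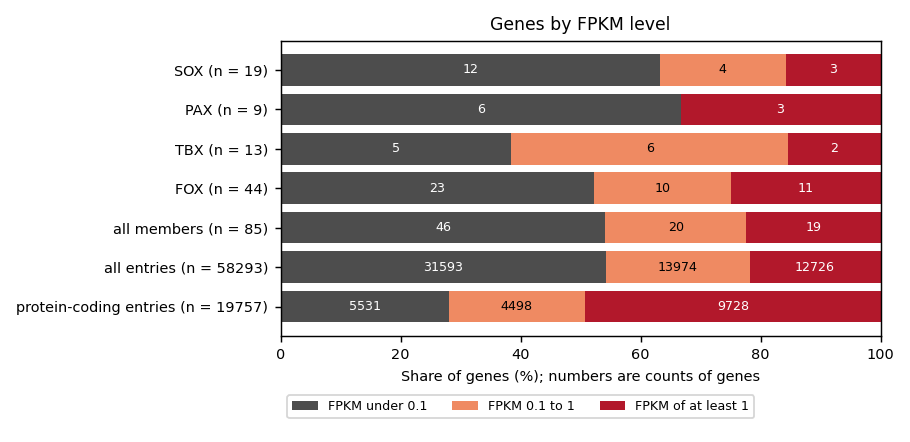
Share of genes (%) at an FPKM under 0.1, from 0.1 to 1 and of at least 1, for each family, all 85 members, all entries and protein-coding entries, with counts of genes in the bars. The bar of all members resembles that of all entries, and the bar of coding entries has the largest expressed share.

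Each family held expressed and silent genes, in proportions whose difference was not tested. SOX genes were 3 expressed, 4 low and 12 silent, with a median of 0.0471 FPKM. PAX genes were 3 expressed and 6 silent, with 0 low and a median of 0.0377. TBX genes were 2 expressed, 6 low and 5 silent, with a median of 0.154. FOX genes were 11 expressed, 10 low and 23 silent, with a median of 0.0651. The FOX genes held 75.1 of the 104 FPKM summed over all members, the SOX genes 14.2, the TBX genes 10.4 and the PAX genes 4.70. The 4 highest genes, FOXJ3, FOXK2, FOXM1 and FOXN2, together made up 46.0% of the sum.

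**Figure D2:**
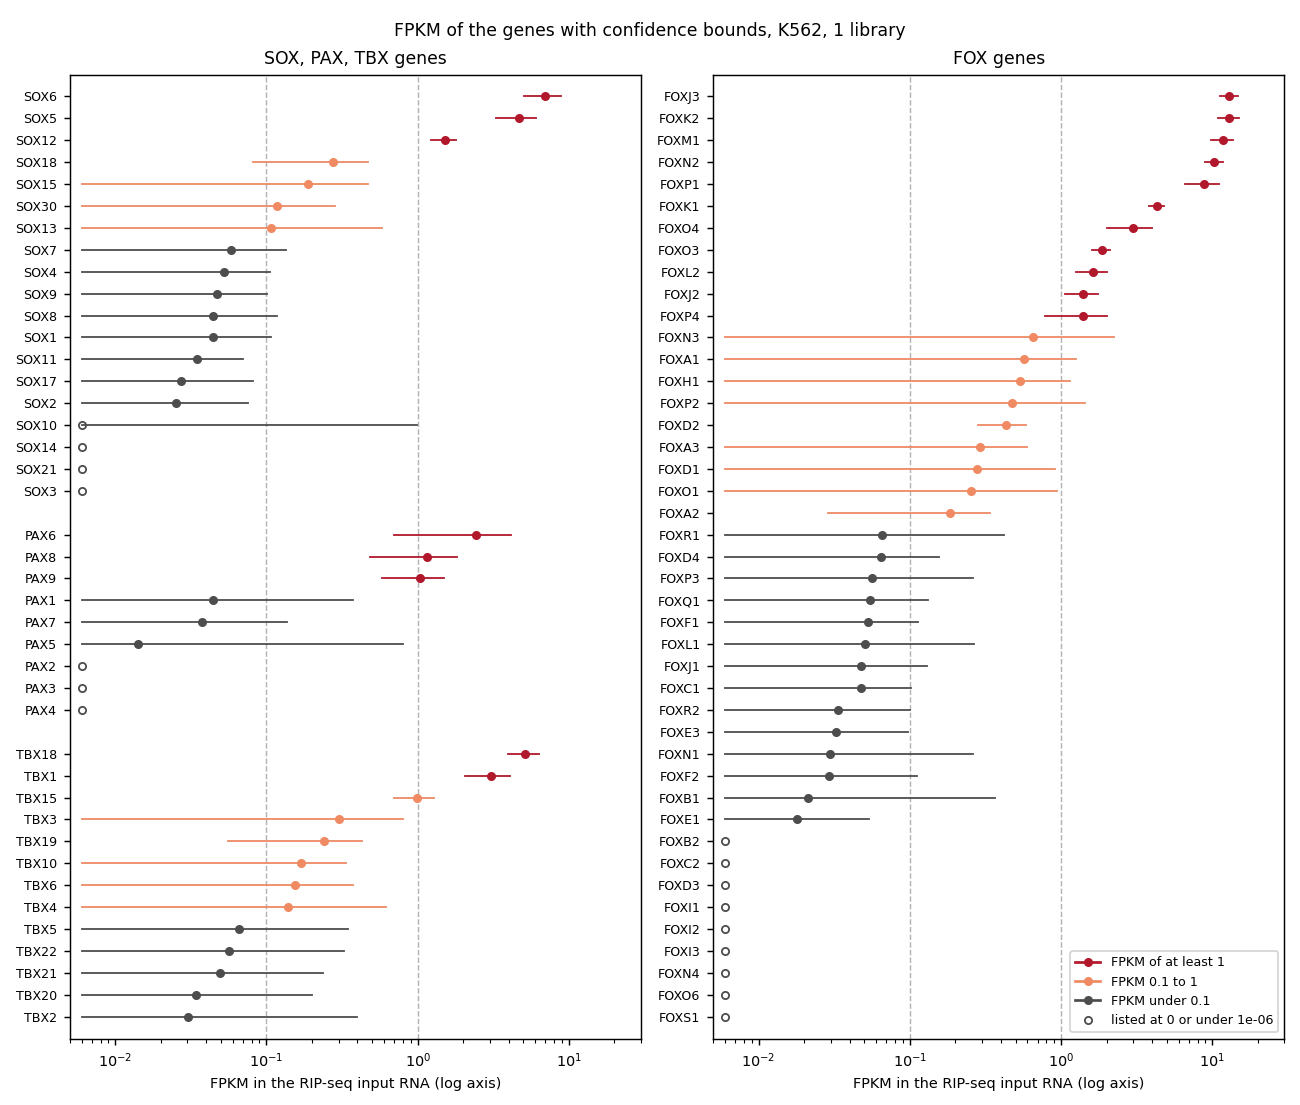
FPKM (log axis) of the genes of each family in the 1 library of RIP-seq input RNA, ordered by level within each family, with lines from the lower to the upper bound and dashed lines at 0.1 and 1. Open points at the left edge are genes listed at 0 and SOX10, and the expressed genes run from 1.04 FPKM for PAX9 to 12.98 for FOXJ3.

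FOXJ3 (ENSG00000198815.8, chr1:42176539-42335877, GRCh38), known in muscle for activating MEF2C, stood at 12.98 FPKM with bounds of 11.2 and 14.7, rank 3432 of all entries. FOXK2 (chr17:82519713-82644662), a regulator of metabolism and autophagy genes, stood at 12.90 with bounds of 10.8 and 15.0. FOXM1 (chr12:2857681-2877155), the activator of the G2/M programme, stood at 11.7 with bounds of 9.83 and 13.7. The bounds of these 3 genes overlapped, so their order is not resolved. FOXN2 (chr2:48314637-48379294) stood at 10.3 with bounds of 8.91 and 11.8, and FOXP1 (chr3:70954693-71583989), a repressor known in lymphoid and cardiac development, at 8.78 with bounds of 6.56 and 11.0. Neighbours in this order overlapped in each case, whereas the bounds of FOXP1 lay wholly under those of FOXJ3.

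The other 6 expressed FOX genes stood between 1.40 and 4.34 FPKM. FOXK1 (chr7:4682309-4771443), the close relative of FOXK2, stood at 4.34 with bounds of 3.84 and 4.83, the narrowest of the expressed members relative to the level. The FOXO factors FOXO4 (chrX:71096197-71103535) and FOXO3 (chr6:108559835-108684774) enter the nucleus when insulin and AKT signalling is low. FOXO4 stood at 3.00 (2.02 to 3.99) and FOXO3 at 1.85 (1.59 to 2.12). FOXL2 (chr3:138944224-138947140), best known as an ovarian factor, stood at 1.63 (1.25 to 2.01). FOXJ2 (chr12:8032703-8055503) stood at 1.41 (1.06 to 1.76) and FOXP4 (chr6:41546426-41602384) at 1.40 (0.789 to 2.01). FOXO3 has a near-identical relative, FOXO3B at 0.466 FPKM, and alignments of low mapping quality were removed, so the division of reads between these genes is uncertain.

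Among the SOX genes the expressed members were SOX6, SOX5 and SOX12. SOX6 (chr11:15966449-16739591) and SOX5 (chr12:23529500-23951032) are SoxD proteins, which carry no activation domain of their own. SOX6 stood at 6.97 FPKM (5.07 to 8.86) and SOX5 at 4.67 (3.30 to 6.04), with bounds that overlapped. Their relative SOX13 stood at 0.107 (0 to 0.581), and the bounds of both other genes lay above it. SOX12 (chr20:325595-330224), a SoxC factor, stood at 1.51 (1.23 to 1.80), while the other SoxC genes SOX4 and SOX11 stood at 0.0521 and 0.0347. The pluripotency and neural factor SOX2 stood at 0.0251, the chondrocyte and testis factor SOX9 at 0.0471 and the endoderm factor SOX17 at 0.0270. SOX18, a vascular factor, was low at 0.276, with a lower bound of 0.0809.

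The expressed PAX genes had the least certain levels. PAX6 (chr11:31784779-31818062), the eye and forebrain factor, stood at 2.42 FPKM with bounds of 0.696 and 4.14. PAX8 (chr2:113215997-113278950), a thyroid and kidney factor, stood at 1.15 (0.485 to 1.81), and PAX9 (chr14:36657568-36679715), a factor of pharyngeal pouches and teeth, at 1.04 (0.578 to 1.49). The lower bounds of all 3 genes lay under 1. The B-cell factor PAX5 stood at 0.0141 with an upper bound of 0.800, PAX1 at 0.0442 and PAX7 at 0.0377, and PAX2, PAX3 and PAX4 were listed at 0.

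Among the TBX genes, TBX18 (chr6:84687351-84764519), known in the epicardium and ureter, stood at 5.13 FPKM (3.95 to 6.31). Its second entry, 736 bp long at chr6:84741067-84741802, stood at 1.70 on 17 fragments. TBX1 (chr22:19756703-19783593), the pharyngeal factor of the 22q11 region, stood at 3.07 (2.06 to 4.08), with bounds that overlapped those of TBX18. TBX15 lay just outside the limit of 1 at 0.989 FPKM, with an upper bound of 1.28, and PAX9 just inside it. The cardiac factor TBX5 lay just under the limit of 0.1 at 0.0654 (0 to 0.348), and SOX13 just above it. The T-cell factor TBX21 stood at 0.0490, and TBX22 and TBX20 at 0.0565 and 0.0344.

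The bounds set how firmly each call can be read. The lower bound was at least 1 for 15 of the 19 expressed genes and under 1 for FOXP4, PAX6, PAX8 and PAX9. The distance from the level to a bound was 11.4% of the level for FOXK1 and 71.2% for PAX6, with a median of 24.9%. Counting error did not set all bounds. For 21 of the 70 members above 0 FPKM they were so wide that they implied under 0.9 fragments. PAX5, FOXB1 and FOXN1 were among them, and all 21 were low or silent. Of the 66 genes under 1 FPKM, 6 had an upper bound of at least 1, among them FOXN3 (2.23), FOXP2 (1.44) and TBX15 (1.28). All 6 were low genes, and 0 of the 46 silent genes had an upper bound that high. However, 15 of the 46 were listed at 0 with bounds of 0. Most of the 31 silent genes above 0 had an upper bound over the silent limit of 0.1, such as SOX10 (0.984), PAX5 (0.800) and FOXR1 (0.421). A lower bound above 0 was found for 24 of 85 members (28.2%), beside 26.5% of all entries and 55.0% of coding entries. These were the 19 expressed genes and FOXD2, TBX15, TBX19, FOXA2 and SOX18. FOXD2 stood at 0.433 (0.282 to 0.585), TBX19, a pituitary factor, at 0.242 (0.0557 to 0.428), and FOXA2, a pioneer factor of endoderm, at 0.184 (0.0289 to 0.340).

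The other low FOX genes included the pioneer factors FOXA1 and FOXA3 at 0.573 and 0.290 FPKM, and FOXO1 at 0.253. FOXH1, a partner of SMAD proteins in Nodal signalling, stood at 0.532. For 15 of the 20 low genes the lower bound was 0, so they could not be told from an absent transcript by their bounds.

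The 46 silent genes stood between 0 and 0.0654 FPKM. Of these, 15 were listed at 0 (17.6% of all members), beside 41.8% of all entries and 11.8% of coding entries. They were SOX3, SOX14, SOX21, PAX2, PAX3, PAX4, FOXB2, FOXC2, FOXD3, FOXI1, FOXI2, FOXI3, FOXN4, FOXO6 and FOXS1. The authors' table gives bounds of 0 for these genes, which are no measure of their error. SOX10, a neural crest factor, had a level of 9.65e-145 with an upper bound of 0.984, so its silence rests on a poorly determined estimate. The 12 genes checked that every cell uses were all above 10 FPKM, and 0 of them were listed at 0.

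For genes of 1 exon the FPKM values could be turned back into whole fragments. The values of other 1-exon entries gave a normaliser of 16783036 fragments, and 94.1% of 3390 such entries with under 100 fragments came out whole within 0.02. The fit used 2530 of 3454 entries, chosen because their bounds implied a whole number, so this share is partly built in. On this scale SOX12 had 114 fragments, FOXL2 had 76 and FOXD2 had 33. In contrast, 10 of the 13 members with a whole number had at most 5 fragments. SOX4 and SOX11 had 5 each, although their bounds implied 3.73 and 3.82. FOXC1 had 3, and SOX1, FOXQ1 and FOXD4 had 2 each. SOX2, FOXE1, FOXE3 and FOXR2 rested on 1 fragment each. FOXD4 has near-identical copies, of which FOXD4L1 stood at 0.0507, FOXD4L6 at 0.0314 and 3 others at 0, so its count is uncertain. For the 7 members of 1 exon that were listed at 0, 3 fragments, the limit that a count of 0 allows, would give 0.0677 FPKM for SOX21 and up to 0.154 for FOXB2. Expression up to these limits was not excluded at this depth.

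The 85 genes fall into 36 subfamilies. Of these, 13 held an expressed member and 13 were silent throughout. Both members of FOXK and the lone member FOXM1 were expressed, which made these the 2 subfamilies with every gene expressed. An expressed gene could be paired with another member of its subfamily in 36 ways. The other gene was under 1 FPKM in 30 of them (83.3%), while 77.6% of all members were under 1 FPKM. A pair in which both genes were expressed was counted once, so these shares have unlike bases. Whether a low partner was more or less common than a low member was not tested. In 5 pairs the other gene was listed at 0 and no bounds could be compared. In 25 pairs the other gene was above 0 and under 1 FPKM, and the bounds did not overlap in 23 of them. The exceptions were PAX8 with PAX5 and FOXP4 with FOXP2. These pairs were sorted by the levels themselves, so bounds that lie apart follow largely from that choice. Some genes also enter several pairs, and no share over pairs of other genes was computed. In 6 pairs both genes were expressed, and the bounds did not overlap in 3.

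The pairs whose bounds lay apart covered a wide range of ratios. FOXK2 was 2.98 times FOXK1, FOXP1 was 6.28 times FOXP4 and FOXJ3 was 9.22 times FOXJ2. FOXO4 was 11.9 times FOXO1, and FOXO3 was 7.32 times FOXO1. FOXN2 was 16.0 times FOXN3, and SOX6 was 65.4 times SOX13, although the lower bounds of FOXO1, FOXN3 and SOX13 were 0, so the ratios against them have no upper limit. FOXN3 at 0.648 had an upper bound of 2.23, under the lower bound of FOXN2. In contrast, the ratios of 1.49 for SOX6 to SOX5, 1.62 for FOXO4 to FOXO3 and 1.67 for TBX18 to TBX1 lay within overlapping bounds.

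**Figure D3:**
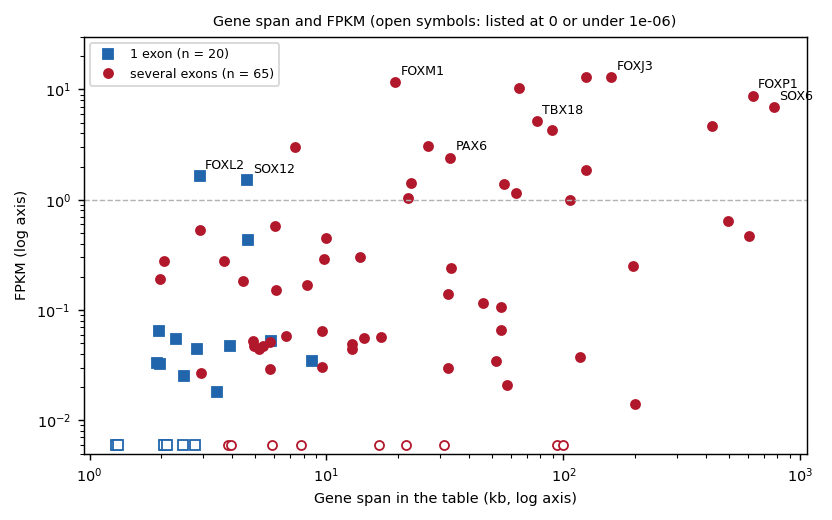
Gene span in the table (kb, log axis) against FPKM (log axis) for the 85 genes, as squares for the 20 genes of 1 exon and circles for the others, with open symbols for genes listed at 0 and SOX10 and a dashed line at 1 FPKM. Most expressed genes lie to the right, with SOX6 at 773 kb, and SOX12 and FOXL2 are the 2 squares above the line.

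Gene structure, which the rule did not use, differed between the levels. The median span was 63.0 kb for expressed, 9.88 kb for low and 5.78 kb for silent members. Over coding entries the same medians were 33.1, 29.1 and 14.3 kb, so the order was shared. The median number of annotated transcripts was 8, 3 and 1 for members and 9, 6 and 3 for coding entries. Of the 20 members with 1 exon, SOX12 and FOXL2 were expressed (10%), beside 17.5% of 922 coding entries with 1 exon. Of the 12 members that span over 100 kb, 6 were expressed (50%), beside 49.6% of 3528 coding entries of that length. These shares are a description, since the members were not matched to the other genes.

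The spans of 4 expressed members, FOXK1, FOXO4, FOXL2 and FOXJ2, overlapped no other listed gene on either strand. Several of the others shared exons with a gene on the opposite strand. The library kit keeps strand, but whether strand was used for the FPKM values was not given in the sources used here, so the part of such reads in the levels was not tested. At least 10% of exonic bases were shared in this way by 5 of the 19 expressed members (26.3%), beside 15.1% of 9718 expressed coding entries. All 3 expressed PAX genes were among them. PAX6 shared 26.3% of its exonic bases, with ELP4 at 10.3 FPKM as its highest partner. PAX9 shared 25.4% with SLC25A21 at 5.68 FPKM, and PAX8 shared 22.4% with PAX8-AS1 at 6.69 FPKM. FOXM1 shared 15.9% with ITFG2 at 10.8 FPKM, and FOXK2 shared 14.1%, with WDR45B at 6.27 FPKM as its highest partner. Among the other members, the low gene FOXH1 shared 39.2% with KIFC2 at 3.35 FPKM. Each of the 3 PAX partners stood above the PAX gene itself.

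Antisense, overlapping and intronic transcripts named after members were listed for 15 of the genes, as 17 entries. Of these, 3 were expressed (17.6%) and 6 were listed at 0 (35.3%), beside 21.8% and 41.8% of all entries, so neither count stood far from the table. PAX8-AS1 stood at 6.69 FPKM (5.36 to 8.02), above PAX8, and the bounds did not overlap. FOXD2-AS1 stood at 1.48 (1.09 to 1.88), beside 0.433 for FOXD2, again with bounds apart. FOXP4-AS1 stood at 5.54, but its bounds of 0.780 and 10.3 overlapped those of FOXP4. FOXP1-IT1, inside FOXP1, stood at 0.578 (0.370 to 0.786). SOX2-OT, whose transcript spans SOX2, stood at 0.796 with bounds of 0 and 3.05, and was not resolved from 0. TBX18-AS1 stood at 0.778 (0 to 1.78), under TBX18.

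Members that lie within 1 Mb of each other formed 12 pairs of 18 genes. Of these genes, FOXJ3 and PAX9 were expressed (11.1%), and 11 were silent (61.1%), beside 22.4% and 54.1% of all members, on few genes. On chromosome 6, FOXQ1, FOXF2 and FOXC1 stood at 0.0549, 0.0291 and 0.0472 FPKM. On chromosome 16, FOXF1, FOXC2 and FOXL1, with gaps of 51.8 and 6.64 kb, stood at 0.0529, 0 and 0.0508. Both groups were silent throughout. TBX2 and TBX4, 42.9 kb apart, stood at 0.0303 and 0.139, and the limb and heart genes TBX5 and TBX3, 262 kb apart, at 0.0654 and 0.301. FOXE3 stood at 0.0323 and its neighbour FOXD2 at 0.433, with bounds that did not overlap. FOXO6 was listed at 0 and FOXJ3, 793 kb away, was the highest member.

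Other genes of the same pathways were read from lists to place the expressed members. These lists were chosen with earlier results of these data known. All 18 genes known as FOXM1 targets or partners were expressed, with a median of 17.0 FPKM. They ran from LIN9, a subunit of the MuvB complex, at 5.86 to the mitotic cyclin CCNB1 at 68.0, and the kinase PLK1 stood at 32.4. For comparison, 49.2% of coding entries were expressed. Many of the 18 genes act in cell division, so their levels in a growing line are no measure of FOXM1 activity, which was not tested. Of 11 genes upstream of the FOXO factors, 10 were expressed (90.9%, beside the same 49.2%), with a median of 14.6. The kinases AKT1 and AKT2 stood at 14.6 and 17.4. The 14-3-3 gene YWHAE, whose protein holds FOXO factors in the cytoplasm, stood at 151.

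FOXO target genes were more divided. Of 15 genes, 10 were expressed (66.7%), beside 49.2% of coding entries, with a median of 1.74 FPKM. The stress gene GADD45A stood at 33.5, TXNIP at 32.9, the antioxidant genes SOD2 and CAT at 26.1 and 19.6, and the cell cycle inhibitor CDKN1B at 4.32. In contrast, the insulin signalling gene IRS2 stood at 0.268, BCL6 at 0.207, and the muscle and liver genes TRIM63, FBXO32 and G6PC at 0.110, 0.0631 and 0.0621. Of 13 corepressors and cofactors, 10 were expressed (76.9%), with a median of 10.9. Whether these shares differ from that of coding entries was not tested. NCOR1 stood at 33.0, the PAX cofactors PAXBP1 and PAXIP1 at 33.2 and 17.7, and the Groucho family genes TLE3 and TLE4 at 7.97 and 3.03, whereas TLE2 stood at 0.924 and TLE1 was listed at 0. BCL11A, the partner of SOX6 in globin silencing, stood at 0.0875 with bounds of 0 and 0.578, beside 6.97 for SOX6 and 15.3 for the erythroid factor GATA1.

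Relatives with the same DNA-binding domains but other names were listed as well. Of 16 such genes, 5 were expressed (31.2%), beside 21.8% of all entries and 49.2% of coding entries, with a median of 0.103 FPKM. The T-box gene MGA stood at 29.1, above every TBX member, and the HMG-box genes LEF1, BBX, TCF7 and CIC stood at 16.8, 5.32, 3.67 and 2.80. The T-box genes T, which encodes Brachyury, TBR1 and EOMES stood at 0.0868, 0.120 and 0.0307.

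**Figure D4:**
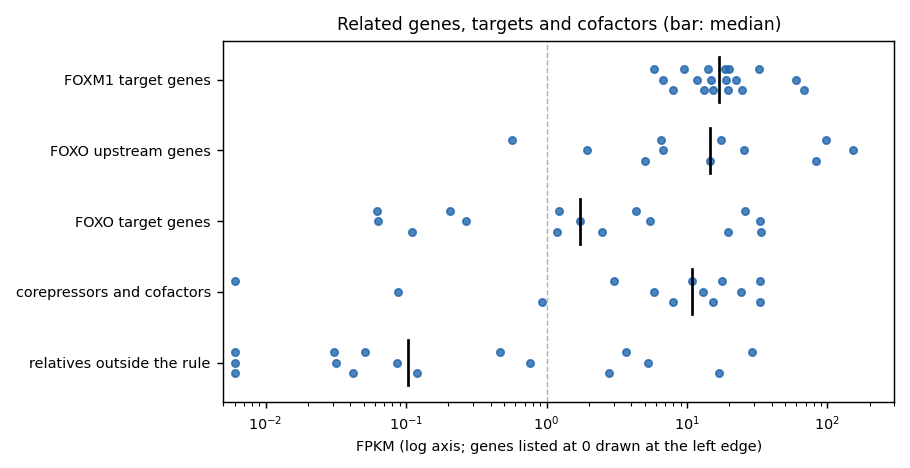
FPKM (log axis) of each gene of 5 lists of targets, upstream genes, cofactors and relatives in the 1 library, with a bar at the median and a dashed line at 1. All 18 FOXM1 targets lie above the line, while 8 of the 16 relatives outside the name rule lie under 0.1.

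The count tables used here hold 900 EZH2 RNA fragments, fewer than the study describes, so overlaps with the remaining fragments were not analysed here. Of the 900 fragments, 0 overlapped a member by any base, so the nuclear, cytoplasmic, polyA+ and polyA− read counts of the fragments gave no value for these genes. Among all 12726 expressed entries, 310 (2.44%) held one of these fragments. Of 1904 expressed entries over 100 kb, 195 (10.2%) held a fragment, and 6 expressed members were that long. Since few expressed entries held one, the count of 0 is not read as particular to these genes. The expressed member nearest to one of these fragments was SOX5, at 168 kb, and 4 expressed members lay within 1 Mb of one.

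CpG content at the start sites varied among the members. RefSeq promoters from 250 bases before to 50 bases after the start were matched to 61 of the 85 genes, and 56 had a start within 1000 bp of the start in the table. Of the expressed genes, FOXM1 and FOXN2 were not matched, and SOX5 and SOX6 were left out by distance. The ratio of observed to expected CpG had a median of 0.988 in 15 expressed, 0.858 in 10 low and 0.733 in 31 silent genes. Over 35116 promoters the median was 0.579, and over 22199 promoters of coding genes it was 0.737, with no split by level. A ratio over 0.6 was found for 14 of the 15 expressed, 7 of the 10 low and 22 of the 31 silent genes (71.0%), beside 62.1% of coding promoters. The ranges overlapped, from 0.483 to 1.19 in expressed and from 0.0787 to 1.07 in silent genes. A CpG-rich start was thus common among silent members too, as in the printed window of TBX20.

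**Figure D5:**
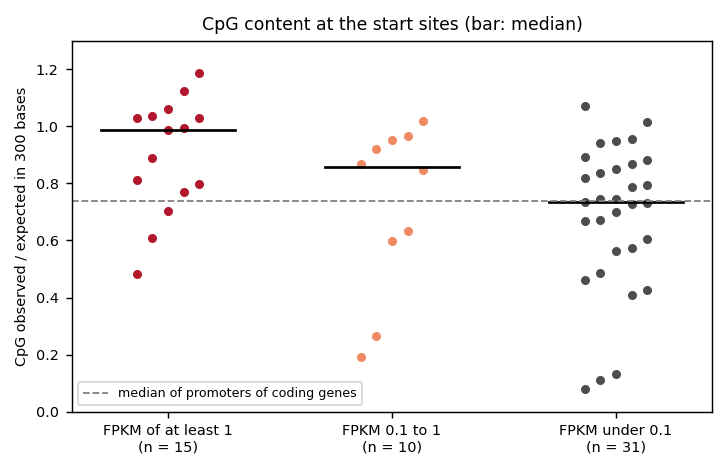
Ratio of observed to expected CpG in 300 bases around the RefSeq start of 56 members, by level, with a bar at each median and a dashed line at the median of coding promoters (0.737). Expressed genes have a median of 0.988 and silent genes of 0.733, and both groups contain genes near 1.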

How the data were processed

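The RIP-seq input RNA of K562 was sequenced as 1 library. The authors deposited FPKM per gene with bounds, made with cuffdiff from STAR alignments (GRCh38, GENCODE 26). Adapter-trimmed reads entered the alignment (TrimGalore), and what counted was limited to a mapping quality of at least 20 and to reads left after SAMtools rmdup had dropped PCR duplicates. For 4 RNA fractions with 1 library each, the authors deposited raw counts, made with featureCounts, on 900 EZH2 fragments, between 7929 and 106051 reads per library. Removing duplicates lowers the counts of abundant short transcripts, and the mapping quality filter removes reads shared by near-identical genes.

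Members were found by symbol and the highest entry of a symbol was used. The genes named with values were every expressed member, those nearest each limit, other members of their subfamilies, and further examples chosen after their values were seen. The members and lists were chosen with earlier results of these data known. Sample groups followed the labels. With 1 library, no test between conditions was made. Shares are given with 95% Wilson intervals. Medians on a log scale used log2(FPKM + 1). Whole fragments of 1-exon entries were recovered by fitting the normaliser and a length correction of 139 bp. This step was tested only on data simulated from the same formula that was fitted. Gene structure and protein-coding status came from GENCODE 44, on the same build as the files, and promoter sequences from RefSeq (GRCh38.p14). Python 3.11.15, numpy 2.4.6, pandas 2.3.3, scipy 1.17.1 and matplotlib 3.10.9 were used. The alternatives were other FPKM limits, the lower bound in place of the FPKM, the handling of overlapping genes, of double entries and of values at 0, the pseudocount, the background, and the overlap of fragments. Some genes that enter the counts are not reported by name or plotted by name here. The other samples of the study were not analysed here.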

Additional observations from a re-analysis of the deposited data

How the results depend on the processing

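With a limit of 2 FPKM in place of 1, 12 members were expressed in place of 19. Without members whose span overlaps another listed gene, 4 of the remaining 42 were expressed, namely FOXK1, FOXO4, FOXL2 and FOXJ2. When silent meant listed at 0, 15 members were silent in place of 46. The median log2 level of the members was 0.08 (all entries 0.09) with a pseudocount of 1, −2.66 (all entries −2.57) with 0.1, and 0.22 (all entries 0.49) when values at 0 were left out. The share of the background that was expressed was 21.83% over all entries and 49.24% (48.54 to 49.94) over coding entries. The counts stayed within 1.5 times under the limit of 0.5 FPKM (23), the lower bound of at least 1 (15), all entries (20), the silent limit of 0.05 (36), and the lower bound above 0 among members of at least 0.1 FPKM (24). The count of EZH2 fragments in members was 0 under either overlap, so rescaling the fraction libraries gave no value. No paired analysis was possible because the gene table held 1 library. At the fitted normaliser of 16783036 fragments, which was inferred from the FPKM values, many low and silent genes rested on few fragments. Some bounds of genes with several transcripts are wider than counting error gives, and differences between cultures could not be measured.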
